A study of Mus musculus with 10 samples.

Results

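The genes described here encode proteoglycans and link proteins of the brain extracellular matrix, and they were taken from a count table by symbol. They are the testicans *Spock1*, *Spock2* and *Spock3*, the lecticans *Acan*, *Bcan*, *Ncan* and *Vcan*, and the link proteins *Hapln1* and *Hapln4*, which makes 9 of the 52227 genes in the table. RNA was sequenced from the cortical hem (CH), the signaling center at the edge of the embryonic cortex that borders the choroid plexus and produces Cajal-Retzius (CR) cells. The CH was cut by laser capture from sections of mouse embryos at e13.5, and the sections of 1 embryo made 1 library. The study compared 5 wild-type embryos with 5 *Lmx1a-/-* embryos to find what the transcription factor Lmx1a controls in the CH.

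Wild-type embryos carried no *Lmx1a* mutation, and *Lmx1a-/-* embryos were homozygous for *drJ*, an allele with a point mutation that leaves the transcript in place but makes an inactive protein. All embryos came from a mixed C57Bl6, FVB and CD1 background without treatment, and the allele was present in every cell of an *Lmx1a-/-* embryo rather than in the CH alone. The level of *Lmx1a* therefore does not check the genotype labels. It lay between 45.6 and 90.8 CPM, counts scaled to library size, in wild-type embryos and between 89.9 and 145 in *Lmx1a-/-* embryos, a log2 fold change of 0.68 (FDR = 0.0658, edgeR's quasi-likelihood test).

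Testicans are secreted proteoglycans that carry heparan sulfate and chondroitin sulfate chains, and they have been studied as modifiers of proteases and cell adhesion in the nervous system. Lecticans are chondroitin sulfate proteoglycans that bind hyaluronan at one end and tenascins and other matrix proteins at the other, and link proteins hold the lectican to the hyaluronan chain. In the developing brain this matrix surrounds migrating neurons and growing axons, and later it condenses into perineuronal nets around mature neurons.

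The sequences just upstream of 3 members are printed because *Spock1* is the member that passed the test, *Spock2* is the testican whose levels lay closest between genotypes, and *Ncan* had the smallest p among the other members. Each is read 5′ to 3′ on the strand of the gene and ends at the base before its annotated start. They come from the RefSeq promoter table of GRCm38.p6, which held 8 of the 9 members, all but *Hapln4*. The intervals are chr13:57908333-57908582 (minus strand) for *Spock1*, chr10:60106007-60106218 (plus strand) for *Spock2* and chr8:70120874-70121094 (minus strand) for *Ncan*. Capitals mark the letters TAAT read on either strand, the core recognized by many homeodomain proteins, the class to which Lmx1a belongs.
Spock1: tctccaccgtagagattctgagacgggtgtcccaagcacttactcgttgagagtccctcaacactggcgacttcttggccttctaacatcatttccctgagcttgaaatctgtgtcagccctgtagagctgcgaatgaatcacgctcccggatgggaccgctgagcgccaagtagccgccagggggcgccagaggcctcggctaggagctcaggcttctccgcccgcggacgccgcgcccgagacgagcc
Spock2: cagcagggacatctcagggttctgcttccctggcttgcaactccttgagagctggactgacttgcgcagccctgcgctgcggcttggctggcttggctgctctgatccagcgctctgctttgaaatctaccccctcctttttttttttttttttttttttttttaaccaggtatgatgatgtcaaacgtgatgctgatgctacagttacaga
Ncan: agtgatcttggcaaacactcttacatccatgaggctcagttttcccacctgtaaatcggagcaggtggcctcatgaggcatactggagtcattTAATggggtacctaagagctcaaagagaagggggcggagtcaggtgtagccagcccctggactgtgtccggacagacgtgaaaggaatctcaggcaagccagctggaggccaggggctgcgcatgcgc

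The 250 bases before *Spock1* held 20 CpG dinucleotides, and 82.1% of 32851 promoters had fewer over the same window. The 212 bases before *Spock2* held 5 CpG and the 221 bases before *Ncan* held 6, against medians of 4 and 5 over all promoters in windows of those lengths. TAAT occurred once before *Ncan* and not before *Spock1* or *Spock2*. It occurred in 54.9%, 51.6% and 52.5% of all promoters in windows of the 3 lengths, so its presence or absence here is a description of letters and not of binding.

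Library totals lay between 19145952 and 36462780 counts. Values are CPM scaled by the trimmed mean of M values. A gene was tested if 3 or more libraries held 10 counts or more of it, which left 21664 genes, and an FDR under 0.1 was the threshold. Genes of the CH itself were present in every library, with 11 of 11 CH markers above 1 CPM on average. Wild-type embryo 3 had the lowest sums among wild-type embryos for CH markers (1922 CPM), CR cell markers (458 CPM) and choroid plexus markers (100 CPM). Its sums were the highest among wild-type embryos for mesenchyme and meninges (926 CPM), neurons (1242 CPM) and cortical neuroepithelium (782 CPM). Wild-type embryo 4 had the lowest wild-type sums for neurons (753 CPM) and cortical neuroepithelium (430 CPM). Wild-type embryos 2 to 5 had high *Xist* and almost no Y-linked transcripts, while wild-type embryo 1 and all 5 *Lmx1a-/-* embryos had Y-linked transcripts, so sex and genotype largely ran together. Because the tissue is bulk, fewer cells of a type and less RNA per cell cannot be told apart.

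Of the 9 members, 7 passed the filter on low counts and 1 of these, *Spock1*, was lower in *Lmx1a-/-* CH, while 2.29% of all tested genes were lower. None of the 7 was higher, where 1.72% of all tested genes were, and 4.02% of all tested genes passed in either direction. At an FDR under 0.05 no member passed and 2.07% of all tested genes did. The median log2 fold change was -0.11 over the 7 members and -0.0049 over all tested genes, with 4 members below 0 and 3 above. At an unadjusted p under 0.05 there were 2 members, *Spock1* and *Ncan*, and 16.4% of all tested genes. In none of the 7 did the embryos of the 2 genotypes separate without overlap, which 4.44% of all tested genes did (2.27% with wild type above and 2.17% with *Lmx1a-/-* above).

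**Figure D1:**
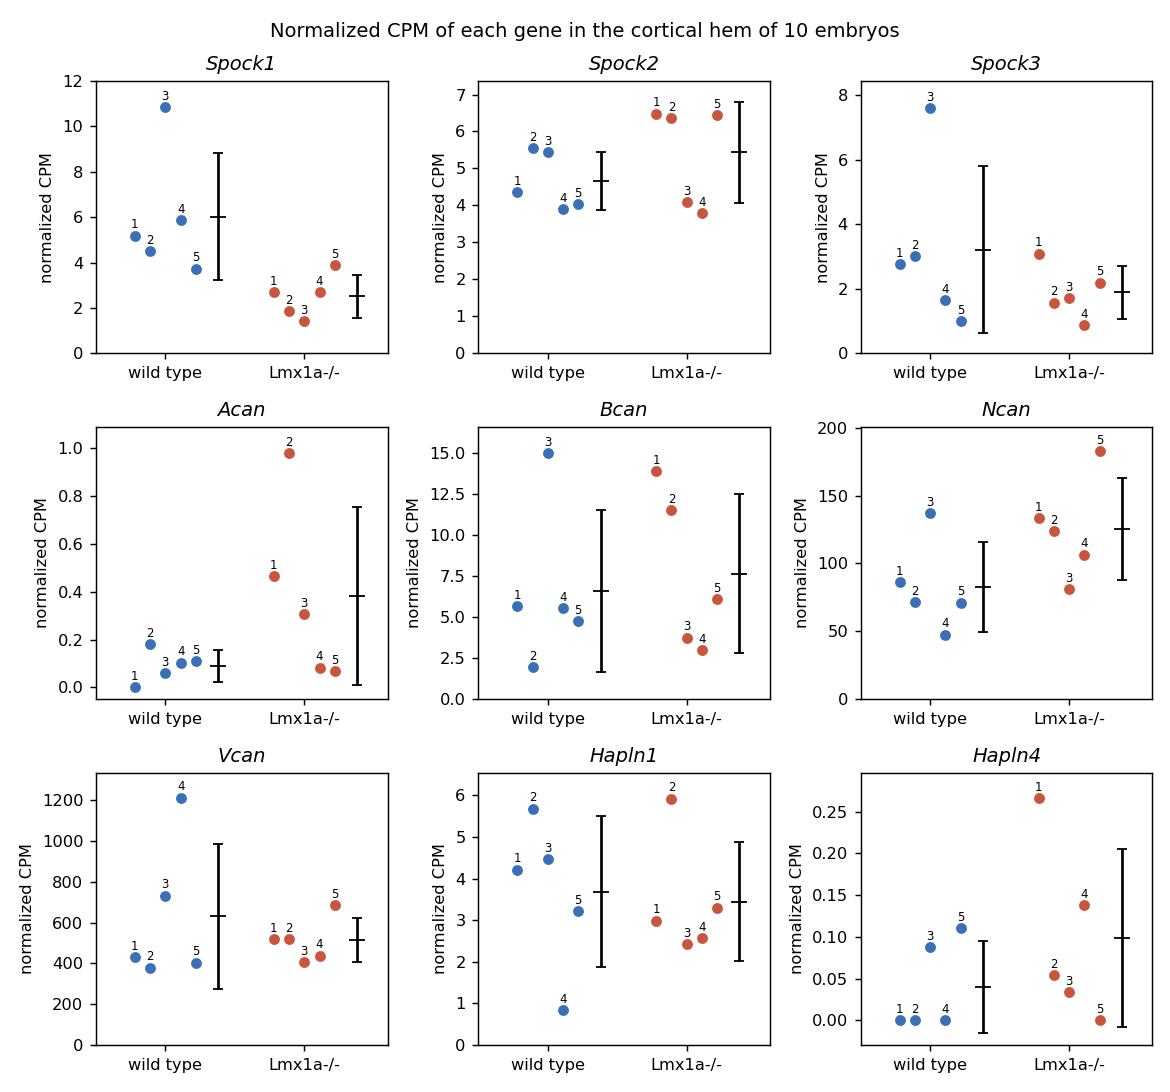
Normalized CPM of the 9 genes, with 1 panel per gene and its own axis; each point is 1 embryo with its number, and the bar is the mean ± SD of 5 embryos. *Spock1* is lower in *Lmx1a-/-* embryos except where wild-type embryo 5 (3.73 CPM) meets *Lmx1a-/-* embryo 5 (3.90 CPM), and the other panels overlap more widely.

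*Spock1* encodes testican-1 and lies at chr13:57421195-57908332 on the minus strand (ENSMUSG00000056222). Its level in wild-type embryos 1 to 5 was 5.19, 4.51, 10.9, 5.86 and 3.73 CPM. The level in *Lmx1a-/-* embryos 1 to 5 was 2.69, 1.85, 1.43, 2.71 and 3.90 CPM. Wild-type embryo 3 stood highest, and the groups overlapped only where *Lmx1a-/-* embryo 5 slightly exceeded wild-type embryo 5. The means were 6.03 ± 2.81 and 2.52 ± 0.949 CPM (SD, n = 5 each), and the gene fell to 0.418 of its wild-type level. Its log2 fold change was -1.26 (SE 0.34, 95% interval -1.98 to -0.54), with an FDR of 0.0752 in edgeR's quasi-likelihood test, rank 664 among all tested genes.

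These values rest on 34 to 369 counts per library, and *Spock1* passed the threshold in 3 of the 10 fits that each left out 1 embryo. It was lower in all 10 of these fits, with log2 fold changes from -1.47 to -0.94 and FDRs from 0.0623 to 0.158 (edgeR's quasi-likelihood test), and the value nearest 0 came without wild-type embryo 3. With the 4 wild-type embryos that lacked Y-linked transcripts left out, the log2 fold change was -1.05 (FDR = 0.585), and with the level of *Xist* as a covariate it was -1.03 (FDR = 0.590). Wild-type embryo 1, with 5.19 CPM of *Spock1*, was the only wild-type embryo with Y-linked transcripts. A single embryo cannot separate sex from genotype, so the part of sex in the difference was not tested.

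The study named *Spock1* among CR cell-enriched genes that differed in these same embryos, so its direction there is not independent of the values given here. Markers of CR cells summed to 458 to 708 CPM in wild-type embryos and to 234 to 404 CPM in *Lmx1a-/-* embryos. Of 8 tested markers 5 were lower and 1 was higher, and the ninth, *Calb2*, was below 1 CPM. Those that passed were *Reln*, *Trp73*, *Lhx1*, *Car10*, *Cdkn1a* and *Lhx5*. The study named all of them as differing in these libraries, and it took their enrichment in CR cells from published datasets. The other tested markers did not pass in edgeR's quasi-likelihood test. These were *Nhlh2* (log2 fold change 0.10, FDR = 0.893) and *Ebf3* (log2 fold change 0.07, FDR = 0.880). In other embryos the study reported weaker Cdkn1a staining and fewer CR cells stained for p73, the protein of *Trp73*, in *Lmx1a-/-* CH. Set against the summed CR cell markers of the same library, *Spock1* lay between 5.28 and 23.7 CPM per 1000 CPM (median 7.33) in wild-type embryos and between 3.54 and 16.1 (median 6.78) in *Lmx1a-/-* embryos, ranges that overlapped widely. With the mean log2 level of the CR cell markers as a covariate, the log2 fold change of *Spock1* was -2.23 (FDR = 0.0435, edgeR's quasi-likelihood test). The marker sums of the 2 genotypes did not overlap, so this fit cannot separate the markers from genotype. Over all tested genes 26 were lower in it, against 497 without the covariate.

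Some markers of tissue next to the CH were also lower. Choroid plexus markers summed to 100 to 449 CPM in wild-type and 128 to 194 CPM in *Lmx1a-/-* embryos, with 4 of 11 lower. *Kcne2* and *Prlr* averaged 1.47 and 1.34 CPM in wild-type embryos and 0.320 and 0.532 CPM in *Lmx1a-/-* embryos, and neither passed. Mesenchyme and meninges markers summed to 328 to 926 CPM and 255 to 519 CPM, with 2 of 10 lower and none below 1 CPM. With these lists as covariates the log2 fold change of *Spock1* was -1.84 (FDR = 0.202) and -0.95 (FDR = 0.409), and their part in the difference was not tested further.

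The 3 tested genes whose profile over the 10 libraries lay nearest to that of *Spock1* were *Gm4524*, *Gm12657* and *Wnt7a*. The measure was the root mean square difference of log2 CPM, each gene centered on its own mean. It was 0.341, 0.348 and 0.396 for the 3 genes, and its median over all tested genes was 0.871. Values under the median follow from the choice of the nearest genes. *Gm4524* and *Gm12657* averaged 1.90 and 1.88 CPM in wild-type embryos and 0.960 and 1.07 CPM in mutants. Neither passed (FDR = 0.218 and 0.197, edgeR's quasi-likelihood test). *Wnt7a*, a secreted Wnt ligand, averaged 7.44 CPM in wild-type embryos against 3.96 CPM in mutants, and its log2 fold change of -0.90 did not pass (FDR = 0.213, edgeR's quasi-likelihood test).

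*Spock2* encodes testican-2 and lies at chr10:60106219-60135198 on the plus strand. It measured 4.37, 5.55, 5.44, 3.89 and 4.03 CPM in wild-type embryos 1 to 5. The *Lmx1a-/-* embryos 1 to 5 measured 6.48, 6.36, 4.09, 3.79 and 6.44 CPM. *Lmx1a-/-* embryos 1, 2 and 5 stood above all wild-type embryos, and embryos 3 and 4 lay among or below them. The log2 fold change was 0.22 (SE 0.22, 95% interval -0.26 to 0.70, FDR = 0.676 in edgeR's quasi-likelihood test).

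*Spock3* encodes testican-3 and lies at chr8:62951009-63357103 on the plus strand, where it overlaps a small gene on the opposite strand. It measured 2.76, 3.02, 7.62, 1.66 and 0.997 CPM in wild-type embryos 1 to 5. The mutant embryos measured 3.09, 1.58, 1.70, 0.886 and 2.19 CPM. Apart from wild-type embryo 3 the genotypes covered the same range. The log2 fold change was -0.77 (SE 0.49, 95% interval -1.83 to 0.28, FDR = 0.474 in edgeR's quasi-likelihood test), and it was -0.16 without wild-type embryo 3.

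The 3 testicans also differed in their relation to each other within an embryo, a comparison chosen after the values were seen and given as a description. Per kilobase of exon, *Spock2* over *Spock1* was 1.27, 1.86, 0.758, 1.00 and 1.63 in wild-type embryos 1 to 5 and 3.64, 5.20, 4.32, 2.11 and 2.50 in *Lmx1a-/-* embryos. The 2 sets of ratios did not overlap. *Spock1* made up 26.4% to 41.7% of the summed testican level per kilobase in wild-type embryos and 13.5% to 28.0% in *Lmx1a-/-* embryos.

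*Vcan* encodes versican, the lectican found most widely outside the nervous system, and lies at chr13:89655312-89742509 on the minus strand. It measured 430, 379, 732, 1212 and 403 CPM in wild-type embryos 1 to 5. Mutant embryos 1 to 5 measured 518, 519, 407, 438 and 685 CPM. Wild-type embryos 3 and 4 stood above every *Lmx1a-/-* embryo, while the other 3 wild-type embryos lay between 379 and 430 CPM, near the lower end of the mutant range. The means were 631 ± 355 and 513 ± 108 CPM (SD, n = 5 each), with a log2 fold change of -0.30 (SE 0.28, 95% interval -0.91 to 0.31, FDR = 0.655 in edgeR's quasi-likelihood test). Without wild-type embryo 4 it was 0.08, so its sign rested on that embryo.

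*Ncan* encodes neurocan, a lectican made mainly in the nervous system, and lies at chr8:70093085-70120873 on the minus strand. It measured 86.0, 71.2, 137, 47.5 and 71.1 CPM in wild-type embryos 1 to 5. The level in *Lmx1a-/-* embryos was 133, 124, 81.2, 107 and 183 CPM. A level of 86.0 CPM or less was seen in 4 of the wild-type embryos and one of 107 CPM or more in 4 of the *Lmx1a-/-* embryos, while wild-type embryo 3 and *Lmx1a-/-* embryo 3 crossed over. The means were 82.6 ± 33.4 and 125 ± 37.5 CPM (SD, n = 5 each), with a log2 fold change of 0.60 (SE 0.25, 95% interval 0.06 to 1.14) that did not pass the threshold (FDR = 0.250 in edgeR's quasi-likelihood test). Without wild-type embryo 3 it was 0.86 (FDR = 0.0526), which passed.

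*Bcan* encodes brevican, a lectican of the nervous system, and lies at chr3:87987531-88000230 on the minus strand. It measured 5.67, 1.94, 15.0, 5.55 and 4.77 CPM in wild-type embryos 1 to 5. Mutant embryos 1 to 5 measured 13.9, 11.5, 3.75, 2.96 and 6.09 CPM. Wild-type embryo 3 and *Lmx1a-/-* embryos 1 and 2 were the only ones above 10 CPM. The log2 fold change was 0.20 (SE 0.51, 95% interval -0.89 to 1.29, FDR = 0.889 in edgeR's quasi-likelihood test).

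*Acan* encodes aggrecan, the lectican of cartilage and of perineuronal nets, and lies at chr7:79053483-79115099 on the plus strand. It was too low to test, with 0, 4, 2, 2 and 3 counts in wild-type embryos 1 to 5 and 14, 18, 9, 3 and 2 counts in *Lmx1a-/-* embryos. *Lmx1a-/-* embryos 1, 2 and 3 held more counts than any wild-type embryo, and embryos 4 and 5 fell within the wild-type range. In a fit of 35744 genes with no filter on low counts, its unadjusted p was 0.0495 and its FDR was 0.363 (edgeR's quasi-likelihood test). The summed counts were 46 in *Lmx1a-/-* and 11 in wild-type embryos, a difference that did not pass the adjusted test.

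**Figure D2:**
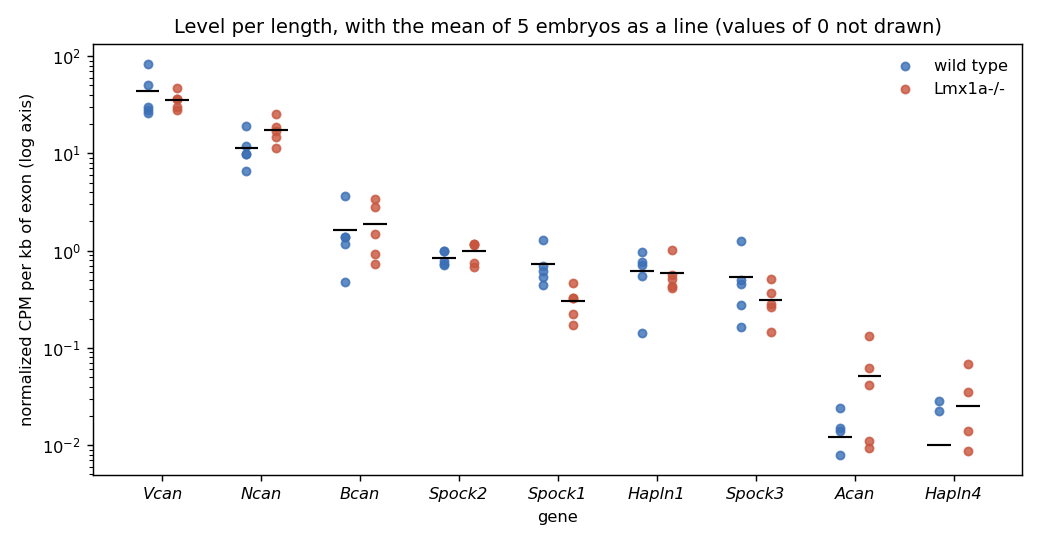
Normalized CPM per kilobase of exon on a log axis for the 9 genes, in the order of their wild-type means; each point is 1 embryo, blue for wild type and red for *Lmx1a-/-*, and each line is the mean of 5 embryos. *Vcan* and *Ncan* lie above the rest in both genotypes, and *Acan* and *Hapln4* lie below the rest.

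The level of the members relative to each other was compared per kilobase of exon, since the summed exon length ran from 3924 bases for *Hapln4* to 14462 for *Vcan*. In wild-type embryos *Vcan* had 43.7 ± 24.5 CPM per kb and *Ncan* 11.5 ± 4.64, and every *Vcan* value was above every *Ncan* value. *Bcan* (1.62 ± 1.21), *Spock2* (0.841 ± 0.142), *Spock1* (0.721 ± 0.336), *Hapln1* (0.624 ± 0.309) and *Spock3* (0.531 ± 0.429) followed, and these 5 overlapped one another from each to the next, while *Bcan* lay wholly below *Ncan* and *Spock3* wholly above *Acan*. *Acan* (0.0122 ± 0.00895) and *Hapln4* (0.0101 ± 0.0140) stood apart at the bottom and overlapped each other. In *Lmx1a-/-* embryos the order was the same but for *Spock1*, which with 0.301 ± 0.113 CPM per kb came after *Hapln1* (0.583 ± 0.242) and *Spock3* (0.313 ± 0.135).

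The share of each lectican in the summed lectican level per kilobase was then described within each embryo, also after the values were seen and with no test. *Ncan* took 27.7%, 27.0%, 26.0%, 7.20% and 25.4% in wild-type embryos 1 to 5 and 32.0%, 30.6%, 28.0%, 32.3% and 34.2% in *Lmx1a-/-* embryos. The 2 sets did not overlap, although *Lmx1a-/-* embryo 3 (28.0%) and wild-type embryo 1 (27.7%) lay close together, and wild-type embryo 4 stood far below the rest. Wild-type embryo 1 was the only wild-type embryo with Y-linked transcripts. *Vcan* took 69.0% to 91.3% in wild-type and 61.9% to 69.6% in *Lmx1a-/-* embryos, which overlapped. *Vcan* over *Ncan*, per kilobase, was 2.49, 2.65, 2.66, 12.7 and 2.82 in wild-type and 1.93, 2.09, 2.49, 2.04 and 1.87 in *Lmx1a-/-* embryos.

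**Figure D3:**
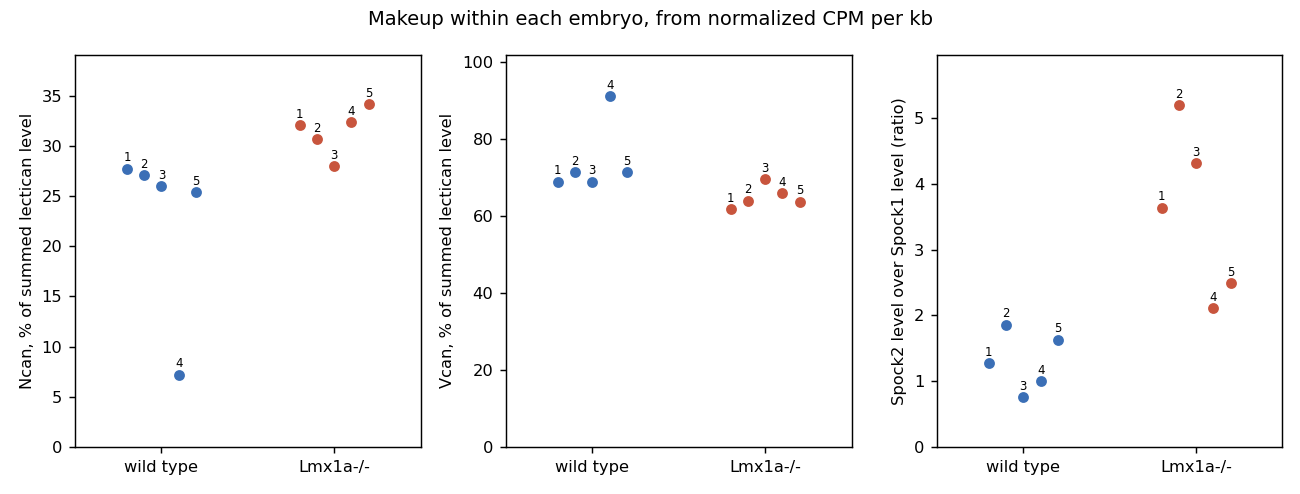
Left and middle, the percent of the summed lectican level taken by *Ncan* and by *Vcan*; right, the ratio of *Spock2* to *Spock1*; all from normalized CPM per kb, with 1 numbered point per embryo. The *Ncan* share lies between 7.20% and 27.7% in wild-type and between 28.0% and 34.2% in *Lmx1a-/-* embryos, and wild-type embryo 4 stands apart in the left and middle panels.

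*Hapln1* encodes the link protein best known from cartilage and also made in the embryonic brain, and lies at chr13:89539796-89611652 on the plus strand. It measured 4.22, 5.68, 4.47, 0.830 and 3.21 CPM in wild-type embryos 1 to 5. The *Lmx1a-/-* embryos measured 2.99, 5.92, 2.42, 2.58 and 3.30 CPM. Wild-type embryo 4, which had the highest *Vcan*, had the lowest *Hapln1* of all 10 embryos. The means were 3.68 ± 1.82 and 3.44 ± 1.43 CPM (SD, n = 5 each), with a log2 fold change of -0.11 (SE 0.41, 95% interval -0.99 to 0.77, FDR = 0.928 in edgeR's quasi-likelihood test).

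*Hapln4*, the brain link protein found with brevican, lies at chr8:70083457-70090862 on the plus strand and was too low to test. It had 0, 0, 3, 0 and 3 counts in wild-type embryos 1 to 5 and 8, 1, 1, 5 and 0 counts in *Lmx1a-/-* embryos. No embryo went above 8 counts, which is below the minimum of 10 used for testing. Of the other link proteins, *Hapln2* had at most 1 count in any embryo, and *Hapln3*, which passed the filter, had means of 1.05 ± 0.540 and 0.840 ± 0.913 CPM (SD, n = 5 each) with a log2 fold change of -0.32 (SE 0.72, FDR = 0.878 in edgeR's quasi-likelihood test).

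Each lectican gene sits next to a link protein gene on the same chromosome. The gap is 43659 bases between *Vcan* and *Hapln1*, 21519 between *Bcan* and *Hapln2*, 2222 between *Ncan* and *Hapln4* and 2 between *Acan* and *Hapln3*, with 0 protein-coding genes in between in all 4 pairs. *Bcan* and *Hapln2* run on the same strand and the other 3 pairs end toward each other. Levels within a pair were unequal, since *Vcan* had 43.7 CPM per kb in wild-type embryos where *Hapln1* had 0.624, and *Ncan* had 11.5 where *Hapln4* had 0.0101. With 2 bases between them, reads at the ends of *Acan* and *Hapln3* may be uncertain, and so may those of *Vcan*, *Hapln1* and *Spock3* where they overlap antisense genes or pseudogenes, because the strand setting of the counting is not given in the sources used here.

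**Figure D4:**
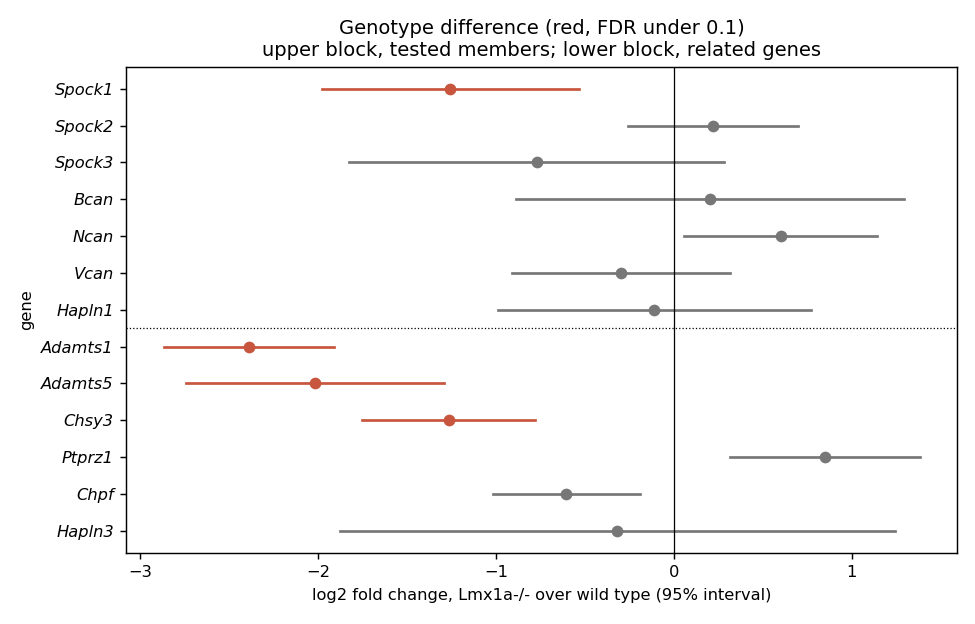
Log2 fold change of *Lmx1a-/-* over wild-type CH with its 95% interval for the 7 tested members (upper block) and 6 genes of the hyaluronan and chondroitin sulfate list (lower block); red marks an FDR under 0.1. *Spock1* is the only member in red, at -1.26, and *Adamts1*, *Adamts5* and *Chsy3* are in red in the lower block at -2.39, -2.02 and -1.27.

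Genes that make, bind or break down the same matrix were taken from a list of 53, of which 51 could be tested. In *Lmx1a-/-* CH 3 of them were lower and none was higher, beside 2.29% and 1.72% of all tested genes. An unadjusted p under 0.05 was seen for 12 of the 51 listed genes, beside 16.4% of all tested genes. The median log2 fold change was -0.12, against -0.0049 over all tested genes, with 32 genes below 0 and 19 above. Among 6 proteases that cleave lecticans 2 were lower, among 21 tested genes for chondroitin sulfate synthesis 1 was lower, and none passed among the 3 hyaluronan synthases, 4 hyaluronan receptors, 4 hyaluronan breakdown genes, 4 lectican partners, 3 other chondroitin sulfate proteoglycans and 5 chondroitin sulfate receptors.

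*Adamts1*, a secreted protease that cleaves versican and aggrecan, measured 62.7, 78.5, 41.7, 47.6 and 62.6 CPM in wild-type embryos and 13.6, 8.04, 12.9, 14.2 and 7.06 CPM in *Lmx1a-/-* embryos. Every wild-type value was above every mutant value, and the gene fell by 2.39 on the log2 scale (SE 0.22, FDR = 0.000166 in edgeR's quasi-likelihood test). The study picked *Adamts1* from the genes most changed in these libraries and named it a CH marker from public in situ hybridization images. Its qRT-PCR primers included *Adamts1*, and it reported all tested targets lower after *Lmx1a* knockdown in the CH of other embryos. *Adamts5*, a related protease with the same kinds of substrate, measured between 16.9 and 63.4 CPM in wild-type embryos (median 41.5) and between 5.00 and 13.9 CPM in *Lmx1a-/-* embryos (median 11.2). Here too the genotypes did not overlap, and the gene fell by 2.02 (SE 0.34, FDR = 0.00759). With the *Xist*, choroid plexus or CR cell covariate, *Adamts1* still passed and *Adamts5* did not.

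*Chsy3*, a synthase that extends chondroitin sulfate chains, measured 21.2, 31.0, 17.4, 17.5 and 32.2 CPM in wild-type embryos and 11.4, 11.4, 11.5, 6.09 and 9.15 CPM in *Lmx1a-/-* embryos. The genotypes did not overlap, and it fell by 1.27 on the log2 scale (SE 0.23, FDR = 0.0102 in edgeR's quasi-likelihood test). It did not pass with the *Xist*, choroid plexus or CR cell covariate, nor when the wild-type embryos without Y-linked transcripts were left out. *Chpf*, a partner of the synthases, had a log2 fold change of -0.60 (SE 0.19, FDR = 0.132) and did not pass. *Ptprz1*, a receptor phosphatase that is itself a chondroitin sulfate proteoglycan, had means of 135 ± 18.8 and 243 ± 122 CPM and also did not pass (log2 fold change 0.85, SE 0.25, FDR = 0.104). Its highest value was 453 CPM in *Lmx1a-/-* embryo 5, which also had the highest *Ncan* and *Vcan* among the mutants. That embryo had the highest sum of interneuron markers of all 10 embryos, 154 CPM against 17.0 to 55.4 CPM in the other mutants, and the part of these cells in its values was not tested.

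**Figure D5:**
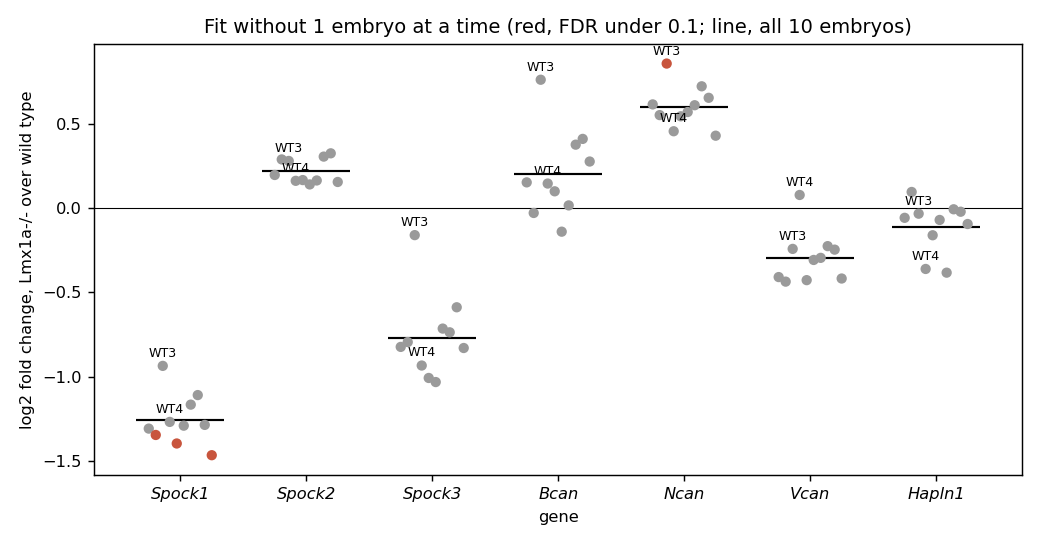
Log2 fold change of the 7 tested members when 1 embryo at a time was left out; each point is 1 fit, the short line is the fit with all 10 embryos, red marks an FDR under 0.1, and the fits without wild-type embryos 3 (WT3) and 4 (WT4) are labelled. Leaving out WT3 brings *Spock3* to -0.16 and *Ncan* to 0.86, and leaving out WT4 brings *Vcan* to 0.08.

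Wild-type embryos 3 and 4 carried much of the spread among the members. Wild-type embryo 3 held the highest wild-type value of 4 members (*Spock1*, *Spock3*, *Bcan* and *Ncan*), and it was also the wild-type library with the lowest CH and CR cell marker sums. Wild-type embryo 4 had the highest *Vcan* and the lowest wild-type *Spock2*, *Ncan* and *Hapln1*. With both left out, a choice made after the data were seen, *Spock1* had a log2 fold change of -0.83 (FDR = 0.271), *Ncan* one of 0.72 (FDR = 0.0993) and *Vcan* one of 0.34 (FDR = 0.287) in edgeR's quasi-likelihood test. Among *Lmx1a-/-* embryos the highest value came from embryo 1 for 4 members, from embryo 5 for 3 and from embryo 2 for 2.

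Of the remaining marker lists, cortical neuroepithelium summed to 430 to 782 CPM in wild-type and 738 to 964 CPM in *Lmx1a-/-* embryos with 1 of 7 higher, and neurons to 753 to 1242 and 858 to 1333 CPM. CH markers summed to 1922 to 3589 and 2200 to 2866 CPM, with 4 of 11 lower and 1 higher. Red blood cell markers summed to 632 to 1472 CPM in wild-type and 267 to 573 CPM in *Lmx1a-/-* embryos, ranges that did not overlap. None of the 7 tested passed, with 6 below 0 and 1, *Alas2*, above. Most of that sum was *Hbb-y* (means 565 and 300 CPM, FDR = 0.108 in edgeR's quasi-likelihood test). Endothelial markers summed to 21.6 to 78.0 and 19.4 to 50.4 CPM, which overlapped. Oligodendrocyte lineage markers summed to 38.5 to 58.3 CPM in wild-type and 17.4 to 41.7 CPM in *Lmx1a-/-* embryos. Nearly all of that sum was *Pdgfra* (means 49.2 and 28.1 CPM), the 1 of 3 tested that was lower. *Olig1* and *Sox10* averaged below 1 CPM. *Olig2* (log2 fold change 0.81) and *Sox10* (0.44) lay above 0 and did not pass. Microglial markers summed to 13.4 to 27.9 and 15.7 to 31.1 CPM. The part of these lists in the values of the members was not tested.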

How the data were processed

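The authors trimmed the reads (Trimmomatic), mapped them to GRCm38 using STAR 2.7.1a and counted reads per Ensembl gene with HTSeq 0.11.2, and they deposited these raw counts without filtering or normalization. Tool versions are those of the submitters' processing notes. Of 52508 deposited rows, 281 exact repeats were dropped. Positions and exon lengths are from GENCODE M21 (GRCm38), counted from 1, and exon length is the union of all annotated exons.

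Genes that reached 10 counts in 3 or more libraries entered the quasi-likelihood test of edgeR 4.0.16 with legacy = TRUE (R 4.3.3, limma 3.58.1) after TMM scaling, without covariates, over all 10 libraries, and p values were adjusted over all 21664 tested genes by the Benjamini-Hochberg method. Intervals are at 95% and use the moderated degrees of freedom. The labels give separate embryos, so p values measure the spread between embryos. The study compared mutants with wild-type littermates, but the labels do not give litters, so shared litters were not modeled.

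The members and all lists were chosen with earlier results of these data known. The genes named are all members, the 5 listed matrix genes with the smallest p, *Hapln2*, *Hapln3* and the 3 genes with profiles nearest to *Spock1*. The fit was tested on simulated counts with known changes. Alternatives were other tests (including DESeq2 1.42.0), scalings, filters, covariates, an FDR of 0.05, a block for embryo number and omission of embryos.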

Additional observations from a re-analysis of the deposited data

Results flagged for a closer look

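In 18 groups of 5 embryos (9 genes in 2 genotypes), 2 had an embryo whose gap to the nearest other exceeded 0.71 of the range of the group, Dixon's limit for 5 values. Chance alone gives about 1 in 20 groups. *Bcan* was 15.0 CPM in wild-type embryo 3, where the other wild-type embryos lay between 1.94 and 5.67 CPM. *Hapln1* was 5.92 CPM in *Lmx1a-/-* embryo 2, where the other *Lmx1a-/-* embryos lay between 2.42 and 3.30 CPM. Neither gene passed the test between genotypes, with or without that embryo.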

How the results depend on the processing

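*Spock1* was lower under every alternative run. With the likelihood ratio test, DESeq2, legacy = FALSE, RLE or library-size scaling, no filter, filterByExpr, kept repeats or the CR cell covariate it remained the 1 member past the threshold. No member was lower (0) with the embryo number as a replicate block (*Spock1* -1.22, FDR = 0.189), with *Xist*, choroid plexus or mesenchyme covariates, at an FDR of 0.05, with Y-linked embryos alone, where 1 wild-type embryo is assumed to vary like the others, or without wild-type embryos 3 and 4, where 1 member, *Ncan*, was higher. Embryo numbers did not pair the samples: correlations of same-numbered embryos lay between -0.0985 and 0.0133, and no embryo correlated best with its own number.

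Signs changed for *Hapln1* to 0.017 (block) and 0.16 (CR covariate), for *Vcan* to 0.27 (*Xist*), 0.11 (mesenchyme), 0.25 (Y-linked embryos) and 0.34 (without embryos 3 and 4), and for *Bcan* to -1.14 (choroid plexus) and -0.068 (CR). Of the listed matrix genes, 6 were lower with DESeq2 and 1 (*Adamts1*, with *Adamts5* and *Chsy3* lost) with the *Xist*, choroid plexus or CR covariate, and 1 (*Ptprz1*) was higher with the likelihood ratio test, legacy = FALSE, library size only or no filter and 3 with DESeq2. Over all genes 805 were lower with the likelihood ratio test, 976 with DESeq2, 30 with *Xist*, 13 with choroid plexus, 213 with mesenchyme, 26 with CR, 251 at an FDR of 0.05 and 90 with Y-linked embryos. The higher genes were 790 with DESeq2, 6, 17, 123 and 24 with the 4 covariates in that order, 197 at an FDR of 0.05, 40 with Y-linked embryos and 248 with the block.

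With 1 embryo left out in turn, lower members ranged from 0 to 1 and higher members from 0 to 1 (*Ncan* without wild-type embryo 3), lower matrix genes from 3 to 4 and higher ones from 0 to 1, and all lower genes from 256 to 588 and higher from 192 to 470. The log2 fold changes ranged from -1.47 to -0.94 for *Spock1*, from 0.14 to 0.33 for *Spock2*, from -1.03 to -0.16 for *Spock3*, from -0.14 to 0.76 for *Bcan*, from 0.43 to 0.86 for *Ncan*, from -0.44 to 0.078 for *Vcan* and from -0.38 to 0.10 for *Hapln1*. *Spock1* passed without wild-type embryos 2 (FDR = 0.0991) or 5 (0.0623) or *Lmx1a-/-* embryo 5 (0.0690) and not in the other 7 fits. The causes of these changes were not tested. *Acan* and *Hapln4* had at most 18 and 8 counts in a library, and without a filter on low counts neither passed (FDR = 0.363 and 0.683).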
